A study of Danio rerio with 24 samples.

Results

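The comparison pooled the knockdown of smn1 with the joint knockdown of tardbp and its paralog tardbpl in zebrafish, to find transcripts that differ in the same direction in both. It took every library of these lines, 12 of the 24 in the series, 6 of embryos with a guide RNA (3TG) and 6 of embryos without one (2TG), 3 of each per line. All were whole embryos at 4 days post fertilization, raised at 28.5 °C, which had received 1 h of heat on day 2 and 1 h on day 3. The smn1 3TG embryos carried the components of CRISPR-QKD, a heat-inducible transgenic CRISPR system that knocks down RNA, with a guide RNA against smn1. The tardbp 3TG embryos carried the components with a guide RNA array against tardbp and tardbpl. The smn1 2TG and tardbp 2TG embryos were brothers and sisters of these that carried the components and lacked the guide RNA. By this design heat, the QFvpr driver that it induces through an hsp70l promoter, and the CRISPR components were common to 3TG and 2TG. The level of hsp70l itself differed between them in the smn1 line, as given below. Whether the driver was induced alike was not tested. In the lin28a and sox9b lines the related system CRISPR-Qa activates a gene, and their 12 libraries, 3 3TG and 3 2TG each, served as an outside comparison. The labels do not say whether replicates came from separate clutches or how many embryos a library held, so p-values measure the spread between these libraries, which may be technical.

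The survival motor neuron protein SMN, encoded by smn1, is the core of a complex that loads Sm proteins onto spliceosomal small nuclear RNAs. TDP-43, the product of tardbp and in zebrafish also of tardbpl, binds UG-rich RNA and controls splicing and RNA stability. Loss of SMN causes spinal muscular atrophy, and TDP-43 accumulates in amyotrophic lateral sclerosis. Both act in RNA metabolism in all cells, while motor neurons are the cells in which disease is seen.

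The values are transcripts per 1000000 (TPM), a share of transcripts corrected for length. Listed genes made up 98.7% to 99.0% of 1000000 TPM in 11 of the 12 libraries and 77.8% in tardbp 3TG replicate 3. In that library the entries zgc:158463, FO704772.3 and AL935186.10 held 20.8%, 8.55% and 4.88% of the TPM, 34.3% together, against 0.124% to 0.879% in the other 11. Every library was rescaled to 1000000 TPM without these 3 entries, and all levels below are rescaled TPM. The tests took 19469 of 25432 genes, those that reached 1 TPM in 6 or more of the 12 libraries. At the edge of this filter 316 genes reached 1 TPM in exactly 6 libraries and 321 in exactly 5. No gene had 1 TPM in all 6 3TG libraries and in no 2TG library, and 2 genes had the reverse. On the first principal component, with 38.3% of the variance, 3TG and 2TG overlapped in both lines, tardbp 2TG replicate 1 lay lowest (-79.4) and tardbp 3TG replicate 3 lay among the 2TG libraries (-18.4). The share of mitochondrially encoded transcripts differed by 0.443 percentage points between 3TG and 2TG (exact permutation within lines, two-sided p = 0.355) and that of the 100 most abundant genes by 1.73 percentage points (exact p = 0.075; the smallest p this test can give is 0.005).

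The targeted transcripts were examined first. smn1 had 13.2, 17.6 and 16.1 TPM in smn1 3TG, against 28.6, 25.0 and 26.8 TPM in smn1 2TG, and the groups did not overlap. In the other line smn1 had 21.7, 20.7 and 26.6 TPM in tardbp 3TG, against 26.4, 24.7 and 22.2 TPM in tardbp 2TG, and they did. tardbp had 75.7, 81.2 and 111 TPM in tardbp 3TG, against 148, 110.1 and 120.2 TPM in tardbp 2TG. tardbpl had 119, 123 and 176 TPM in tardbp 3TG, against 219, 199.7 and 184 TPM in tardbp 2TG. Replicates 1 and 2 of tardbp 3TG were below every 2TG library of the line for both genes, while replicate 3 was above the lowest 2TG library for tardbp and just below it for tardbpl. In the smn1 line tardbp had 116, 82.2 and 83.7 TPM in smn1 3TG, against 114, 96.8 and 112 TPM in smn1 2TG, with overlap. The pooled log2 differences, 3TG minus 2TG, were -0.42 for smn1 (SE 0.149), -0.35 for tardbp (SE 0.143) and -0.38 for tardbpl (SE 0.137), each an average over a line in which the gene was targeted and one in which it was not. In limma over all genes their adjusted p was 0.145, 0.173 and 0.149. The difference between the lines for smn1 (-0.75 in the smn1 line, -0.089 in the tardbp line) had an unadjusted limma p of 0.0200 and an adjusted p of 0.999. The genes activated in the other lines are no targets here: lin28a differed by -0.69 (SE 0.341, limma adjusted p = 0.238) and sox9b by -0.15 (SE 0.285, limma adjusted p = 0.767).

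hsp70l, a heat-inducible HSP70 chaperone gene whose promoter drives the system, had opposite signs in the lines. It had 7.46, 11.4 and 28.3 TPM in smn1 3TG, against 237, 236 and 322 TPM in smn1 2TG. In the other line it had 36.7, 8.73 and 275 TPM in tardbp 3TG, against 13.2, 38.8 and 4.63 TPM in tardbp 2TG. The smn1 groups were far apart and the tardbp groups overlapped, with the highest value of that line in tardbp 3TG replicate 3. The log2 difference was -4.18 in smn1 and 1.66 in tardbp, and the test between the lines gave an unadjusted limma p of 0.00136 and an adjusted p of 0.999. Of 37 heat shock and chaperone genes, 2 were higher and 5 lower at an unadjusted p under 0.05 in the pooled limma fit, where 6.62% of all genes were higher and 16.8% lower. By sign in both lines 5 were higher and 10 lower, against 25.2% and 43.6% of all genes, and the list's median was -0.83 in smn1 and 0.23 in tardbp. The 1 member that was without overlap and on the same side in both lines was hspa4b, an HSP110-type exchange factor, at -0.47 (SE 0.131). Of all genes 2.98% were so placed in that direction. In smn1 its margin was very narrow, with 81.65 TPM in 3TG replicate 1 against 81.75 TPM in 2TG replicate 2. By p the next member was hspb1, which was apart in smn1 (-1.73) and overlapped in tardbp (-0.0013). It had 1265, 2206 and 1017 TPM in smn1 3TG, against 7260, 4104 and 3473 TPM in smn1 2TG. Other heat-inducible HSP70 genes of zebrafish are close copies of hsp70l, and reads shared between copies, as between tardbp and tardbpl or among elastase and globin genes, may have been divided among them. What share the heat response has in the results below was not tested.

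No gene passed the pooled limma fit at an adjusted p of 0.05 (0% in either direction). The smallest adjusted p was 0.0527, for wars1 and tti2, both lower in 3TG. At an unadjusted p under 0.05 there were 4559 genes, 23.4% of those tested: 1289 (6.62%) higher and 3270 (16.8%) lower in 3TG. The median difference of all genes was -0.10 on the log2(TPM + 1) scale, which understates the change of low genes. With the TPM as deposited that median was -0.25 and the unadjusted counts were 427 higher and 4224 lower; after median centring of the libraries they were 2040 higher and 1983 lower. The size of the surplus of lower genes thus changed with the scaling. TPM as deposited carry the 3 entries of tardbp 3TG replicate 3, and median centring draws the counts together by construction, so neither shows where the surplus comes from. Each difference below is to be read against the median of all genes. Counts of list members at an unadjusted p under 0.05 are likewise to be read against the 6.62% higher and 16.8% lower of all genes. For counts by sign in the pooled fit the share of all genes is not given. As the median of all genes was below 0, most genes were lower by sign. By sign in both lines 43.6% of all genes were lower and 25.2% higher. In each line alone limma called 0 genes, with smallest adjusted p of 0.0838 in smn1 and 0.437 in tardbp. In smn1 hsp70l was among the genes at that smallest value. At an unadjusted p under 0.05 there were 1137 higher and 1291 lower genes in smn1 and 526 and 1694 in tardbp.

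How many genes were called turned on 1 library and on the estimate of the spread. Without tardbp 3TG replicate 3, 110 genes (0.565%) were called higher and 272 (1.4%) lower. Most members of the gene lists below that were called in that fit had a limma adjusted p of 0.0496, just under the threshold. With that library left out and median centring as well, 79 were called higher and 31 lower. With 1 spread estimated from all 24 libraries, 207 (1.06%) were called higher and 765 (3.93%) lower, and with a weight for each library 310 higher and 1284 lower. Leaving out any other single library gave 0 calls in limma (with 2426 or more lower and 793 or more higher genes at an unadjusted p under 0.05), apart from 1 lower call without smn1 3TG replicate 1. The deposited tables wrote 3 2TG libraries and 1 3TG library with 6 decimals and the other 8 with 6 significant digits, and with this format as a covariate limma called 0 genes (1047 higher and 2514 lower at an unadjusted p under 0.05).

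**Figure D1:**
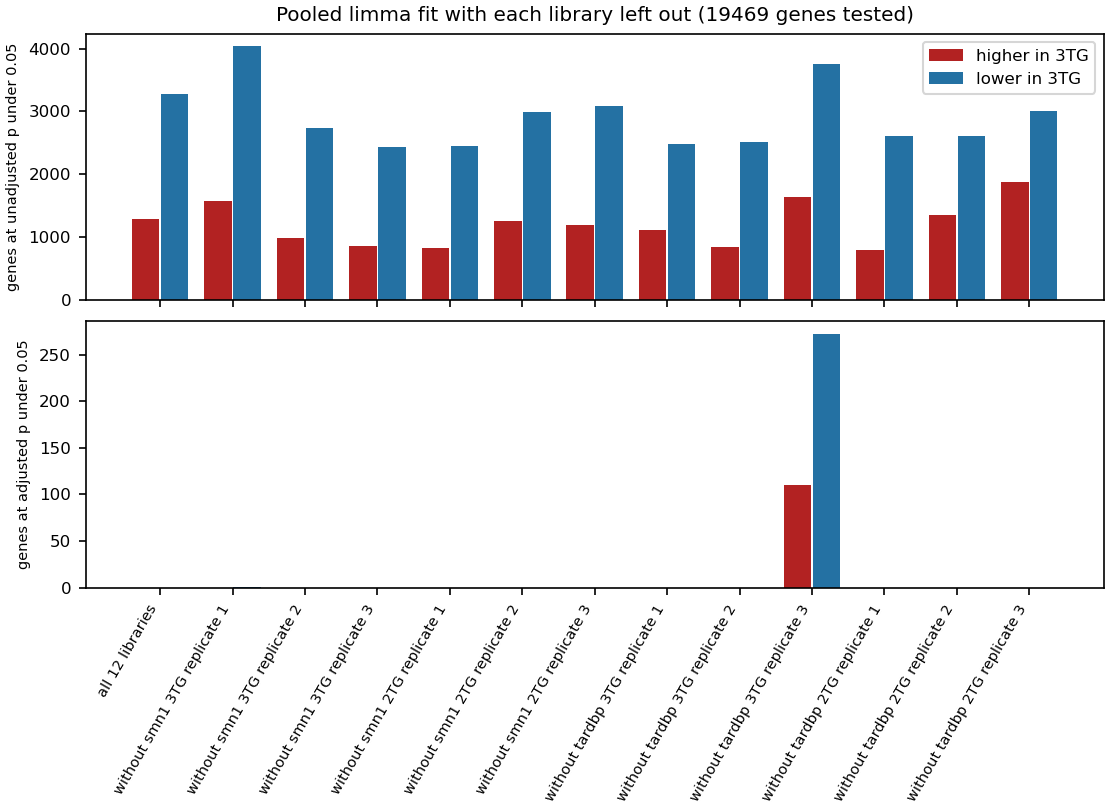
Bars show the number of genes higher (red) or lower (blue) in 3TG at an unadjusted p under 0.05 (upper panel) and at an adjusted p under 0.05 (lower panel) in the pooled limma fit, with all 12 libraries and with each library left out in turn. Bars at an adjusted p are visible without tardbp 3TG replicate 3 (110 higher, 272 lower) and in no other fit, 1 gene without smn1 3TG replicate 1 being too few to show, and in every fit shown more genes are lower than higher at an unadjusted p under 0.05.

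Genes were termed alike when, in each line, all 3 3TG libraries lay above or all 3 below the 3 2TG libraries, in the same direction. This places libraries and is not a test. There were 78 alike higher genes (0.401%) and 581 alike lower genes (2.98%), while 63 genes (0.324%) had no overlap in either line with opposite directions, 45 (0.231%) higher in smn1 and lower in tardbp and 18 (0.0925%) the reverse. Within smn1, 1544 genes (7.93%) lay higher without overlap and 2257 (11.6%) lower; within tardbp these were 640 (3.29%) and 2989 (15.4%). The alike lower genes made up 25.7% of the smn1 list and 19.4% of the tardbp list, and the alike higher genes 5.05% and 12.2%. Over all tested genes 68.8% had the same sign in both lines, 25.2% higher and 43.6% lower. The test of tardbp minus smn1 called 0 genes in limma (smallest adjusted p 0.973), with 749 (3.85%) at an unadjusted p under 0.05. Scaling moved the number of alike genes: median centring gave 161 higher and 251 lower, among them 68 of the 78 and 211 of the 581, and TPM as deposited gave 3 higher and 1139 lower. Without tardbp 3TG replicate 3 there were 392 higher and 1209 lower, with 1 library fewer to place. Alike members of the lists below are to be read against the 0.401% higher and 2.98% lower of all genes.

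**Figure D2:**
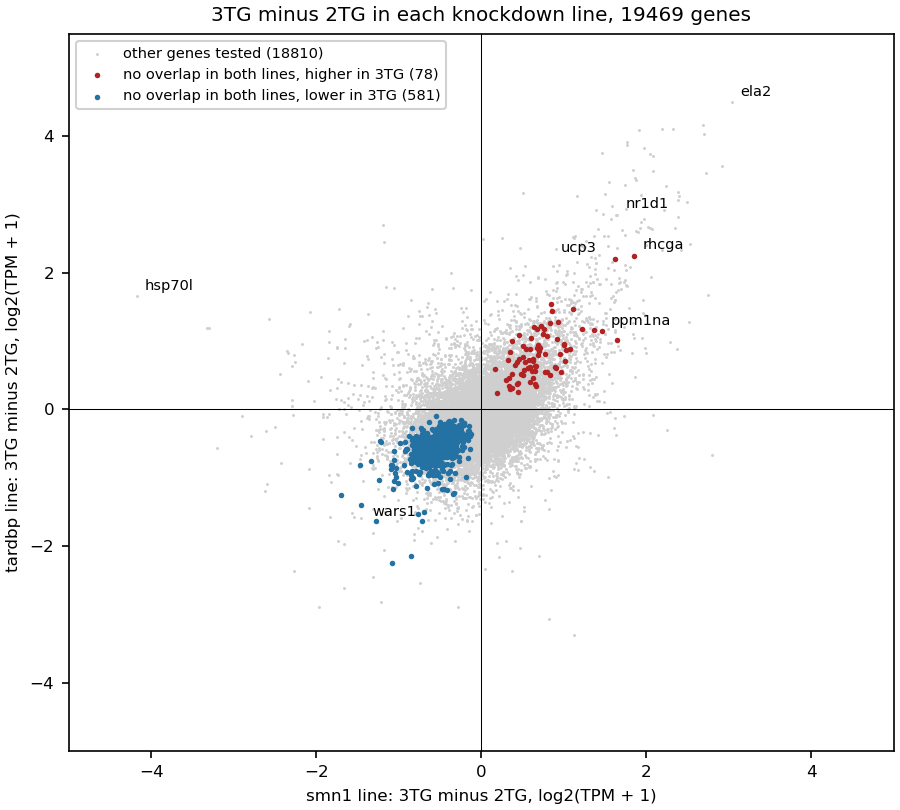
Each point is 1 of 19469 genes, placed by its 3TG minus 2TG difference in log2(TPM + 1) in the smn1 line (horizontal axis) and in the tardbp line (vertical axis); red and blue points are the 78 higher and 581 lower alike genes. The alike lower genes crowd in the lower left near the middle (median of the pooled difference -0.51), the alike higher genes spread into the upper right (median 0.70), and hsp70l lies farthest to the left with -4.18 in smn1 and 1.66 in tardbp.

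Among alike lower genes wars1, the cytosolic tryptophanyl-tRNA synthetase that charges tRNA for protein synthesis, had the smallest p. It had 4.72, 5.36 and 3.40 TPM in smn1 3TG, against 9.31, 10.0 and 11.9 TPM in smn1 2TG, and 4.75, 2.80 and 3.87 TPM in tardbp 3TG, against 10.1, 8.67 and 10.3 TPM in tardbp 2TG. All 6 3TG values were below all 6 2TG values. The log2 difference was -1.12 (SE 0.150; -1.07 in smn1 and -1.17 in tardbp) with limma adjusted p = 0.0527. Over the fits with other settings the difference ran from -1.28 to -0.72 and the adjusted p from 0.00259 to 0.437. In the activation lines, which had no part in choosing it, wars1 had 4.10, 4.20 and 8.28 TPM in lin28a 3TG, against 4.94, 4.97 and 4.85 TPM in lin28a 2TG, and 8.31, 9.99 and 9.02 TPM in sox9b 3TG, against 10.1, 8.55 and 7.75 TPM in sox9b 2TG. Those groups overlapped, and lin28a embryos with and without a guide mostly stood at the level of knockdown 3TG embryos. The knockdown difference minus the activation difference was -1.18 (SE 0.209, unadjusted limma p 1.01e-05, adjusted p = 0.197). The knockdown side of that test is the one that chose wars1, so this unadjusted p is no independent support.

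tti2, which with TELO2 stabilises kinases of the ATM and mTOR family, had 4.81, 5.52 and 4.97 TPM in smn1 3TG, against 11.2, 9.57 and 10.3 TPM in smn1 2TG, and 6.02, 4.98 and 7.10 TPM in tardbp 3TG, against 13.3, 11.7 and 11.6 TPM in tardbp 2TG. Every 3TG library was lower than every 2TG library of either line. Its difference was -0.91 (SE 0.123, limma adjusted p = 0.0527; 0.0313 to 0.437 over those fits). ttc26, of the intraflagellar transport that builds cilia, had 5.39, 5.04 and 4.18 TPM in smn1 3TG, against 12.2, 13.8 and 7.94 TPM in smn1 2TG, and 5.37, 4.93 and 4.31 TPM in tardbp 3TG, against 9.32, 11.7 and 9.49 TPM in tardbp 2TG. The 3TG values lay close together and the 2TG values spread wider, with no overlap (-0.98, SE 0.151, limma adjusted p = 0.120).

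poglut3, an O-glucosyltransferase of the endoplasmic reticulum, had 9.71, 8.57 and 7.35 TPM in smn1 3TG, against 15.7, 15.1 and 15.6 TPM in smn1 2TG, and 8.40, 6.54 and 11.1 TPM in tardbp 3TG, against 15.1, 15.6 and 14.9 TPM in tardbp 2TG. selenom, a selenoprotein of the same compartment, had 27.8, 30.0 and 26.7 TPM in smn1 3TG, against 62.4, 54.8 and 40.1 TPM in smn1 2TG, and 20.5, 19.7 and 33.0 TPM in tardbp 3TG, against 56.2, 36.7 and 50.9 TPM in tardbp 2TG. Both were without overlap in each line, and tardbp 3TG replicate 3 was the 3TG library of its line nearest to 2TG. Their differences were -0.78 (SE 0.134) and -0.91 (SE 0.165). poglut3 was also without overlap lower in lin28a, an activation line, with 9.70, 6.59 and 10.3 TPM in lin28a 3TG, against 10.8, 11.5 and 14.7 TPM in lin28a 2TG. Others were the palmitoyltransferase gene zdhhc20b (-0.84, SE 0.159), the hyaluronidase gene hyal2b (-0.75, SE 0.143) and the neutral sphingomyelinase gene smpd2b (-0.76, SE 0.147).

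The nuclear pore gene NUP85 had 13.7, 10.2 and 10.1 TPM in smn1 3TG, against 22.7, 22.5 and 18.1 TPM in smn1 2TG, and 8.11, 5.51 and 12.4 TPM in tardbp 3TG, against 20.3, 15.1 and 18.1 TPM in tardbp 2TG. Its groups were apart in both lines, and they were apart in lin28a too, with 6.81, 8.56 and 12.9 TPM in lin28a 3TG, against 14.1, 13.1 and 14.4 TPM in lin28a 2TG. NUP85 differed by -0.93 (SE 0.175) in the knockdowns. spra, the sepiapterin reductase that completes the cofactor of monoamine synthesis, had 9.69, 6.46 and 6.23 TPM in smn1 3TG, against 23.6, 15.6 and 11.6 TPM in smn1 2TG, and 4.82, 3.85 and 8.68 TPM in tardbp 3TG, against 12.4, 15.5 and 9.88 TPM in tardbp 2TG. It had the largest SE of the 14 lower genes named here and did not overlap within a line (-1.05, SE 0.214). The remaining alike lower genes of smallest p were nrm of the inner nuclear membrane (-0.65, SE 0.133), anapc5 of the anaphase-promoting complex (-0.68, SE 0.137), the kinase gene stk26 (-0.64, SE 0.131) and psmd8, given with the proteasome. The limma adjusted p was 0.128 for each from poglut3 onward. Without tardbp 3TG replicate 3 all 14 of these lower genes passed in limma, wars1 and tti2 included, with adjusted p between 0.0313 and 0.0496. In that fit 1.4% of all genes passed in that direction. The 14 had been chosen by smallest p in these same libraries, so their passing is no independent support.

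Among alike higher genes rhcga, an Rh glycoprotein that moves ammonia across skin and gill, had the smallest p. It had 15.4, 30.9 and 51.1 TPM in smn1 3TG, against 5.76, 5.76 and 11.6 TPM in smn1 2TG, and 30.3, 32.3 and 11.1 TPM in tardbp 3TG, against 1.16, 4.90 and 8.17 TPM in tardbp 2TG. The groups were apart within each line, although tardbp 3TG replicate 3 fell inside the range of smn1 2TG. The log2 difference was 2.05 (SE 0.394, limma adjusted p = 0.128). In lin28a it ranged widely in both groups, with 103, 61.1 and 17.1 TPM in lin28a 3TG, against 85.3, 10.6 and 19.7 TPM in lin28a 2TG. ucp3, a mitochondrial carrier of the uncoupling protein family, had 22.8, 21.8 and 81.2 TPM in smn1 3TG, against 8.59, 14.5 and 9.31 TPM in smn1 2TG, and 27.1, 40.9 and 11.9 TPM in tardbp 3TG, against 1.33, 10.1 and 4.98 TPM in tardbp 2TG. One 3TG library of smn1 stood far above the rest, and no group overlapped within a line (1.91, SE 0.428).

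Tighter groups were seen for cort, which encodes a neuropeptide related to somatostatin, with 29.0, 36.4 and 33.9 TPM in smn1 3TG, against 11.9, 12.5 and 23.2 TPM in smn1 2TG, and 33.0, 41.8 and 34.4 TPM in tardbp 3TG, against 12.8, 24.8 and 22.2 TPM in tardbp 2TG. The metallothionein gene mtbl, whose product binds zinc and copper, had 58.8, 80.1 and 94.7 TPM in smn1 3TG, against 44.6, 41.4 and 57.8 TPM in smn1 2TG, and 106, 97.9 and 112 TPM in tardbp 3TG, against 63.5, 40.7 and 66.8 TPM in tardbp 2TG. All 6 3TG libraries exceeded all 6 2TG libraries for cort, and within each line they did so for mtbl. The differences were 0.98 (SE 0.194) and 0.79 (SE 0.161). The salt-inducible kinase gene sik2b differed by 0.81 (SE 0.164), the adaptor gene pdlim2 by 0.79 (SE 0.176) and the kelch protein gene klhl17 by 0.67 (SE 0.155). plvapa, which forms diaphragms of fenestrated endothelium, differed by 0.82 (SE 0.196) and mlc1, known in mammals from astroglia, by 0.78 (SE 0.183). The other higher genes were the chemokine receptor gene ccr12a (0.98, SE 0.218), the glycosyltransferase gene abo (1.2, SE 0.277), the G protein subunit gene gna14a (0.97, SE 0.228) and the phosphatase gene ppm1na (1.3, SE 0.316). cabp2b is given with the hair cells. The limma adjusted p was 0.128 for each of the 14. Without tardbp 3TG replicate 3, rhcga, cort, sik2b, mtbl, ccr12a, ucp3 and abo passed in limma, each with an adjusted p of 0.0496. The other 7 had adjusted p between 0.0504 and 0.0579, so both sets lay close to the threshold. In that fit 0.565% of all genes passed in that direction, and these 14 too had been chosen by smallest p in the same libraries.

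**Figure D3:**
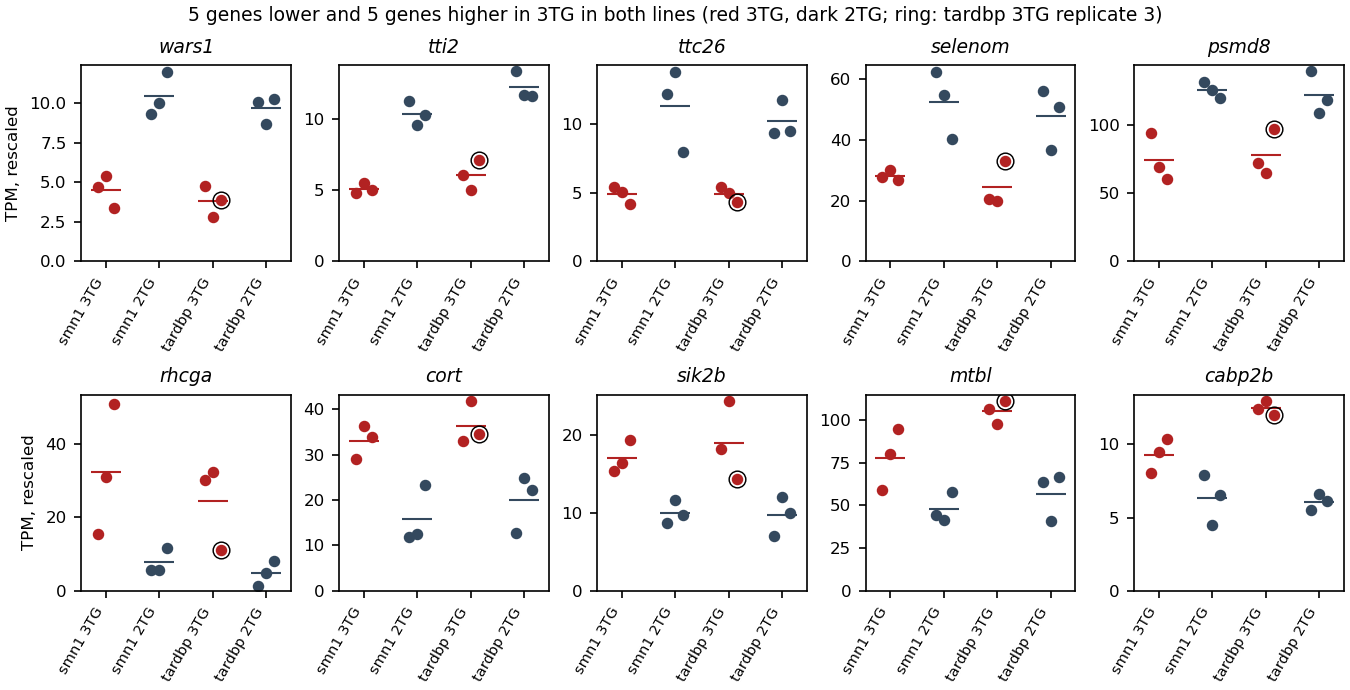
Points are the rescaled TPM of single libraries on linear axes from 0, for 5 alike lower genes (upper row) and 5 alike higher genes (lower row); short bars are group means, red is 3TG, dark is 2TG, and the ring marks tardbp 3TG replicate 3. Within a line red and dark points do not overlap, and the ringed library is the red point of its line nearest to 2TG for tti2, selenom, psmd8, rhcga, sik2b and cabp2b but not for wars1, ttc26, cort or mtbl.

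The activation lines gave a measure outside the choice of these genes. There limma called 0 genes over all tested, 93 (0.478%) were higher and 86 (0.442%) lower at an unadjusted p under 0.05, and by sign 52.4% were higher and 47.6% lower. The 581 lower genes had a median difference of -0.51 in the knockdowns and -0.0092 in the activation lines together; 61.1% were lower in lin28a, against 56.4% of all genes, and 36.8% in sox9b, against 34.5%. The 78 higher genes had a median of 0.70 in the knockdowns and -0.042 in the activation lines; 38.5% were higher in lin28a, against 43.6% of all genes, and 55.1% in sox9b, against 65.5%. The test of knockdown minus activation called 0 genes in limma (smallest adjusted p 0.197), with 1103 (5.67%) higher and 2185 (11.2%) lower at an unadjusted p under 0.05. For 387 of the 581 and 50 of the 78 the unadjusted p was under 0.05 there, although the knockdown side of that test is the one that chose them. In lin28a, 3TG replicate 2 stood apart from replicates 1 and 3 for several genes, among them hsp70l with 1154 TPM against 7.30 and 44.9 TPM. No activation library was left out in turn, so how far the lin28a medians given below rest on that library was not tested.

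The proteasome degrades proteins marked with ubiquitin. All 37 of its tested genes were lower by sign, 34 of them at an unadjusted p under 0.05, where 16.8% of all genes were. The list's median was -0.47 (-0.52 in smn1, -0.48 in tardbp), ran from -0.56 to -0.41 with single libraries left out, and was -0.40 after median centring, with 27 genes at an unadjusted p under 0.05. psmd8, in the lid of the regulatory particle, had 94.5, 69.4 and 60.4 TPM in smn1 3TG, against 132, 126 and 120.3 TPM in smn1 2TG, and 72.5, 65.0 and 97.6 TPM in tardbp 3TG, against 140.3, 109 and 118 TPM in tardbp 2TG. psmc6, an ATPase that unfolds substrates, had 115, 79.5 and 63.9 TPM in smn1 3TG, against 153, 139 and 122 TPM in smn1 2TG, and 81.6, 69.0 and 109 TPM in tardbp 3TG, against 128, 121 and 119 TPM in tardbp 2TG. Both were apart in each line, with tardbp 3TG replicate 3 the highest 3TG library of its line. The differences were -0.71 (SE 0.140) and -0.62 (SE 0.155), each with limma adjusted p = 0.128. The ATPase gene psmc3 (-0.53), the lid gene psmd12 (-0.58) and psmb7, a protease subunit of the core (-0.47), were also alike, where 2.98% of all genes were alike lower. Without tardbp 3TG replicate 3, 10 proteasome genes were called lower (1.4% of all genes were), and with the spread of 24 libraries 20 (3.93% of all genes). In lin28a and sox9b the list's medians were 0.11 and -0.021.

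The SMN complex, the Sm ring it assembles and the Cajal body, where the particles mature, were lower by sign in all 20 tested genes, smn1 among them. At an unadjusted p under 0.05 there were 17, where 16.8% of all genes were lower. The median was -0.62 (-0.50 in smn1, -0.60 in tardbp, -0.070 in lin28a, 0.019 in sox9b), and -0.56 after median centring, with 19 genes lower by sign and 12 at that threshold. snrpf, an Sm ring protein, had 114, 40.6 and 27.8 TPM in smn1 3TG, against 184, 135 and 81.8 TPM in smn1 2TG, and 47.0, 42.7 and 37.6 TPM in tardbp 3TG, against 115, 186 and 75.8 TPM in tardbp 2TG. Its tardbp groups were apart, and its smn1 groups overlapped through smn1 3TG replicate 1 (-1.38, SE 0.320, limma adjusted p = 0.128). coil, the scaffold protein of Cajal bodies, had 4.72, 4.12 and 3.14 TPM in smn1 3TG, against 6.21, 7.30 and 8.29 TPM in smn1 2TG, and 5.07, 3.16 and 6.66 TPM in tardbp 3TG, against 7.64, 7.67 and 7.50 TPM in tardbp 2TG. It was alike in both lines (-0.65, SE 0.165), where 2.98% of all genes were alike lower. The other alike member was lsm11 of the U7 particle that processes histone transcripts (-0.80). The Sm genes snrpb (-0.70), snrpd2 (-0.80), snrpd3 (-0.92), snrpe (-0.80) and snrpg (-0.86) were at the same threshold, as were prmt5 (-0.66) and clns1a (-0.60), which prepare Sm proteins for SMN. Of the gemins, gemin5, which recognises small nuclear RNAs, differed by -0.49, gemin6 by -0.77 and gemin7 by -0.060; gemin7, gemin4 and gemin8 did not reach the threshold. The number called lower was 1 (coil) without tardbp 3TG replicate 3, where 1.4% of all genes were. With the spread of 24 libraries it was 5 (snrpb, snrpf, coil, prmt5 and clns1a), where 3.93% of all genes were.

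Spliceosomal and other RNA-binding proteins followed with smaller differences. Of 38 genes 35 were lower by sign and 20 at an unadjusted p under 0.05, and the median was -0.34 (-0.18 in smn1, -0.51 in tardbp). Without tardbp 2TG replicate 1, as after median centring, 12 genes were at that threshold. hnrnpc, which coats nascent transcripts, had 53.3, 36.5 and 28.1 TPM in smn1 3TG, against 59.7, 54.5 and 61.5 TPM in smn1 2TG, and 38.3, 32.0 and 48.2 TPM in tardbp 3TG, against 74.0, 63.6 and 53 TPM in tardbp 2TG. snrpa, a protein of the U1 particle, had 84.8, 71.7 and 62.5 TPM in smn1 3TG, against 115, 92.1 and 91.6 TPM in smn1 2TG, and 70.7, 58.8 and 89.0 TPM in tardbp 3TG, against 137, 108 and 95.0 TPM in tardbp 2TG. Both were apart in each line, where 2.98% of all genes were alike lower, and so was u2af2a, which binds the polypyrimidine tract before exons. The differences were -0.64 (SE 0.162), -0.54 (SE 0.142) and -0.52. fus, an RNA-binding protein also linked to amyotrophic lateral sclerosis, differed by -0.70 and was called without tardbp 3TG replicate 3, as were 1.4% of all genes in that direction. Several abundant factors, among them hnrnpk (-0.15), elavl1a (-0.25) and sf3b1 (0.24), did not reach the threshold.

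RNA decay and small RNA processing were lower by sign in 27 of 30 genes, 13 at an unadjusted p under 0.05, with a median of -0.25 (-0.20 in smn1, -0.32 in tardbp). Alike lower were 5 of the 30, against 2.98% of all genes. These were exosc2 (-0.78) and exosc7 (-0.53) of the exosome, its nuclease dis3 (-0.61), and drosha (-0.50) with its partner dgcr8 (-0.49), which cut primary microRNAs. exosc2 had 14.4, 18.2 and 9.67 TPM in smn1 3TG, against 20.6, 29.0 and 25.3 TPM in smn1 2TG, and 17.1, 11.6 and 20.4 TPM in tardbp 3TG, against 34.5, 24.9 and 24.2 TPM in tardbp 2TG. drosha had 9.20, 7.85 and 7.51 TPM in smn1 3TG, against 13.3, 11.4 and 12.7 TPM in smn1 2TG, and 7.55, 9.22 and 10.6 TPM in tardbp 3TG, against 14.6, 11.9 and 11.9 TPM in tardbp 2TG. In both genes the 3TG libraries lay below the 2TG libraries of their line, and tardbp 3TG replicate 3 was nearest to 2TG in its line. The decay factors upf1 (-0.26), smg1 (-0.091) and smg5 (-0.25), dicer1 (-0.23) and the argonaute gene ago2 (0.13) did not reach the threshold.

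All 51 tested genes of the cell cycle and replication were lower by sign, 20 at an unadjusted p under 0.05. The median was -0.53, with -0.21 in smn1 and -0.82 in tardbp, and 38 of the genes had a lower sign in both lines. gins1, of the replicative helicase, had 7.82, 8.25 and 6.16 TPM in smn1 3TG, against 10.9, 9.51 and 12.4 TPM in smn1 2TG, and 6.80, 4.65 and 8.32 TPM in tardbp 3TG, against 11, 9.06 and 9.48 TPM in tardbp 2TG. It was the 1 alike member (-0.52, SE 0.149), where 2.98% of all genes were alike lower. It was also lower in lin28a (-0.46) and sox9b (-0.30), with overlap in both. plk1, a kinase of mitosis, had 32.0, 25.1 and 9.39 TPM in smn1 3TG, against 38.3, 25.2 and 37.1 TPM in smn1 2TG, and 21.9, 7.84 and 30.8 TPM in tardbp 3TG, against 99.7, 35.9 and 39.1 TPM in tardbp 2TG. The smn1 groups overlapped, and in the tardbp line 2TG replicate 1 stood far above the others (-1.11, SE 0.382, limma adjusted p = 0.140). cdk1 differed by -0.49 in smn1 and -1.35 in tardbp, and cdc20, which activates the anaphase-promoting complex, by -0.31 and -1.93. Without tardbp 2TG replicate 1 the list's median was -0.42, with 11 genes at that threshold. In a whole embryo fewer cells of a kind and less RNA per cell cannot be told apart, here and in the tissue lists below.

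Lipid synthesis and stress gave mixed lists. Of 30 genes of cholesterol and lipid synthesis, 22 were lower by sign and 10 at an unadjusted p under 0.05 (median -0.23). Alike were pmvk (-0.72) of the mevalonate pathway, the sterol enzyme gene nsdhl (-0.46) and the fatty acid elongase gene elovl6 (-0.36). Of all genes 2.98% were alike lower. pmvk was a low transcript, with 1.06, 0.621 and 0.540 TPM in smn1 3TG, against 2.34, 2.47 and 1.4 TPM in smn1 2TG, and 0.943, 1.19 and 0.793 TPM in tardbp 3TG, against 2.23, 1.93 and 1.96 TPM in tardbp 2TG. Of 33 genes of the unfolded protein and integrated stress responses, 28 were lower by sign. At that threshold, where 16.8% of all genes were lower and 6.62% higher, 7 were lower and 2 higher, chac1 (0.83) and dnajc3a (0.66). Among the lower ones sesn2, a stress-induced regulator of mTOR, differed by -0.79 (SE 0.240) and the serine synthesis gene psat1 by -1.08 (SE 0.342), with overlap in both lines for each. The 66 cytosolic ribosomal protein genes had 61 higher by sign and a median of 0.10 (0.058 to 0.15 with single libraries left out), none at an unadjusted p under 0.05. With TPM as deposited 60 were lower by sign and the median was -0.094. Their direction thus differed between the deposited and the rescaled TPM. The rescaling left out the 3 entries and also brought the other listed genes of each library to 1000000 TPM. The part of each step was not tested.

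**Figure D4:**
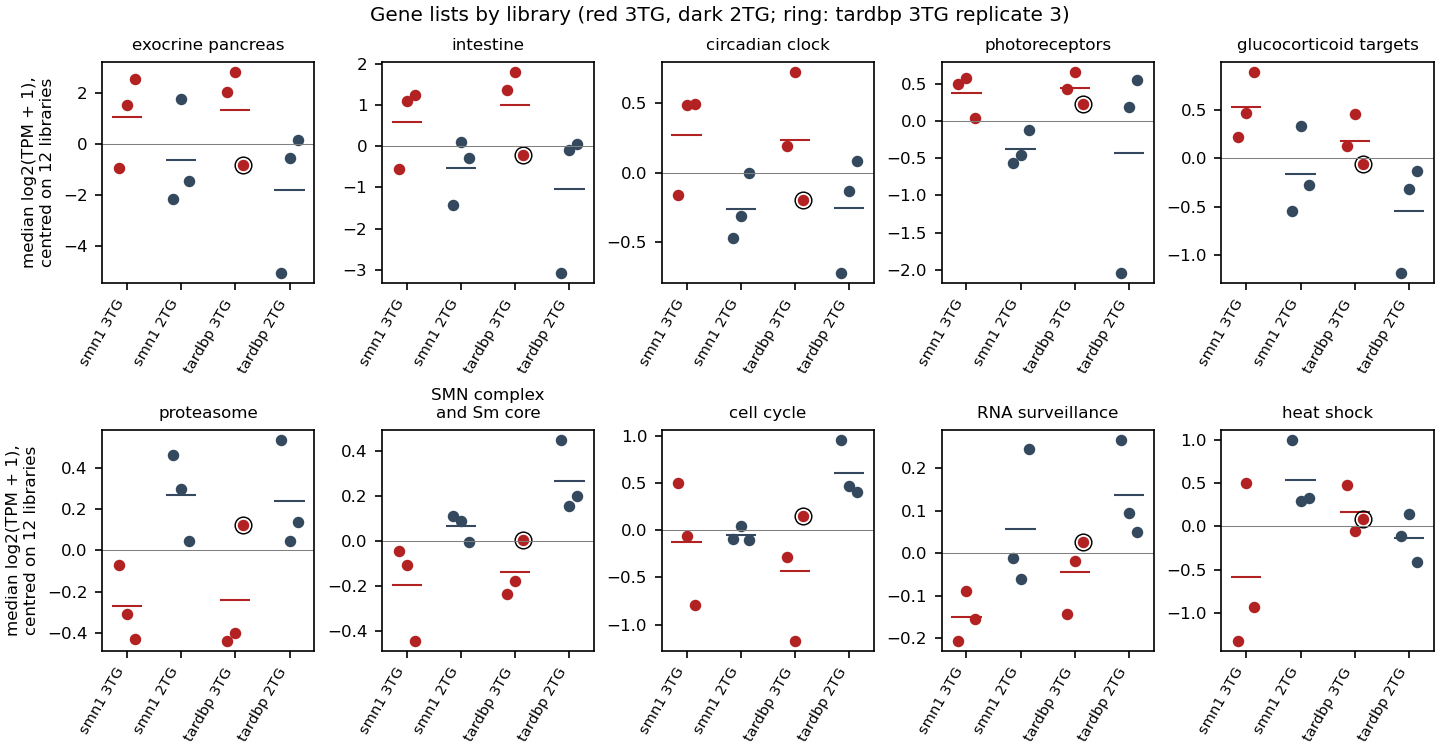
Points are the median of log2(TPM + 1) over the tested members of a list in each library, minus the mean of that median over the 12 libraries. Short bars are group means, red is 3TG, dark is 2TG, and the ring marks tardbp 3TG replicate 3. In exocrine pancreas tardbp 2TG replicate 1 lies far below the rest (-5.05), and the proteasome list is apart in smn1 while the ringed library (0.12) lies within tardbp 2TG.

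Exocrine pancreas and intestine had the largest positive medians of the lists of at least 10 genes, and they were uneven between libraries. Of 29 genes of the exocrine pancreas, which makes digestive enzymes, 26 were higher at an unadjusted p under 0.05, where 6.62% of all genes were. The median was 2.60 (1.74 in smn1, 3.27 in tardbp), and none was alike. ela2l, an elastase gene, had 174, 832 and 1921 TPM in smn1 3TG, against 23.2, 1081 and 35.8 TPM in smn1 2TG, and 1256, 2465 and 100.1 TPM in tardbp 3TG, against 7.06, 160.3 and 182 TPM in tardbp 2TG. In each line the groups overlapped, through smn1 2TG replicate 2 in smn1 and through tardbp 3TG replicate 3 in tardbp (3.09, SE 1.13, limma adjusted p = 0.149). cela1.2, another elastase gene, had 2.03, 7.93 and 11.6 TPM in smn1 3TG, against 0.130, 5.80 and 0.448 TPM in smn1 2TG, and 13.3, 21.4 and 1.53 TPM in tardbp 3TG, against 0, 1.28 and 1.63 TPM in tardbp 2TG, with the same overlaps (2.00, SE 0.595). ptf1a, the transcription factor of the acinar lineage, differed by -0.51 and did not reach the threshold. Without tardbp 2TG replicate 1 the median was 1.77, with 12 genes higher and 1 lower at that threshold. In lin28a the median was -1.70 and in sox9b -0.11. ela2l had 1589, 21.1 and 237 TPM in lin28a 3TG, against 1713, 693 and 664 TPM in lin28a 2TG, so the lin28a 3TG libraries were uneven too.

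In the intestine 20 of 32 genes were higher at an unadjusted p under 0.05, with a median of 1.11 (1.21 in smn1, 1.07 in tardbp, -0.71 in lin28a). pck1, an enzyme of glucose synthesis, had 208, 152 and 299 TPM in smn1 3TG, against 32.5, 54.8 and 88.2 TPM in smn1 2TG, and 129.9, 155 and 86.9 TPM in tardbp 3TG, against 23.3, 120.3 and 68.6 TPM in tardbp 2TG. slc10a2, the bile acid carrier of the ileum, had 6.53, 13.3 and 11.2 TPM in smn1 3TG, against 2.58, 4.35 and 3.17 TPM in smn1 2TG, and 9.64, 7.99 and 3.78 TPM in tardbp 3TG, against 0.436, 6.17 and 3.48 TPM in tardbp 2TG. Both were apart in smn1 and overlapped in tardbp, where 3TG replicate 3 lay within the 2TG range. The differences were 1.5 (SE 0.375) and 1.23 (SE 0.349), each with limma adjusted p = 0.128. The peptide carrier gene slc15a1b (2.2), lct (1.80) and fabp2 (1.35) were at that threshold. Without tardbp 2TG replicate 1 the median was 0.86. Of 36 genes of liver plasma proteins and enzymes 8 were higher and 1 lower at that threshold. By sign 22 were higher and 14 lower, with a median of 0.24 (0.18 in smn1, 0.24 in tardbp). By p the first were cyp2ad2 (2.34, SE 0.706) and the tyrosine aminotransferase gene tat (2.52, SE 0.821), both far above that median.

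Clock genes form the feedback loop of the circadian rhythm and its outputs. Of 43 such genes 24 were higher and 4 lower at an unadjusted p under 0.05, with a median of 0.72 (0.58 in smn1, 0.76 in tardbp, -0.014 in lin28a, 0.059 in sox9b). With TPM as deposited 10 were higher and 5 lower at that threshold. The repressor genes cry1b (1.25), nr1d1 (2.25), per1b (1.61) and bhlhe41 (1.35) were among the higher ones and the activator genes arntl1a (-0.42) and arntl2 (-0.80) among the lower ones. This split by role covers the genes named here and was not examined over the whole list. cry1b had 2.74, 10.8 and 6.68 TPM in smn1 3TG, against 1.80, 2.91 and 3.59 TPM in smn1 2TG, and 11.5, 17.6 and 4.44 TPM in tardbp 3TG, against 2.21, 2.78 and 2.97 TPM in tardbp 2TG. nr1d1 had 4.52, 51.0 and 11.8 TPM in smn1 3TG, against 4.36, 5.63 and 2.40 TPM in smn1 2TG, and 47.3, 77.1 and 3.31 TPM in tardbp 3TG, against 1.14, 3.66 and 3.34 TPM in tardbp 2TG. For cry1b the tardbp groups were apart and the smn1 groups overlapped, and for nr1d1 both lines overlapped, with 3TG libraries that differed several-fold among themselves. The embryos were raised in a light and dark cycle, and the hour of collection is not given in the sources used here. Without tardbp 3TG replicate 3, 7 clock genes were called higher (0.565% of all genes were) and 1, cry4, lower (1.4% of all genes). With the spread of 24 libraries 2, cry1b and bhlhe41, were called higher (1.06% of all genes) and 1, tspo, lower (3.93% of all genes). The 1 alike gene of the list was tspo, a protein of the outer mitochondrial membrane (-0.57, SE 0.140, lower).

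Photoreceptor and visual cycle genes were higher by sign in 49 of 53, 19 at an unadjusted p under 0.05, with a median of 0.69 (0.68 in smn1, 0.66 in tardbp, -0.33 in lin28a). rbp4l, a retinol-binding protein, had 74.7, 195 and 126 TPM in smn1 3TG, against 35.7, 57.2 and 62.0 TPM in smn1 2TG, and 206, 259 and 109 TPM in tardbp 3TG, against 31.9, 88.3 and 125 TPM in tardbp 2TG. gnat2, the transducin of cones, had 154, 238 and 189 TPM in smn1 3TG, against 76.2, 93.8 and 88.5 TPM in smn1 2TG, and 244, 184 and 144 TPM in tardbp 3TG, against 14.9, 162 and 195 TPM in tardbp 2TG. The smn1 groups were apart for both, and in tardbp the lowest value by far was that of 2TG replicate 1. Without that library the list's median was 0.34. impg2a, of the matrix around photoreceptors, was the 1 alike member (0.83). The cone opsins opn1sw1 (0.79) and opn1mw2 (1.05) did not reach the threshold.

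Genes listed as targets of the glucocorticoid receptor, which answers cortisol, were higher at an unadjusted p under 0.05 in 9 of 21, and 0 were lower. The median was 0.58 (0.67 in smn1, 0.61 in tardbp, 0.22 in lin28a). tsc22d3, a leucine zipper gene induced by cortisol, was the 1 alike member, with 61.4, 68.9 and 94.1 TPM in smn1 3TG, against 36.5, 55.7 and 56.4 TPM in smn1 2TG, and 58.2, 54.3 and 64.2 TPM in tardbp 3TG, against 15.3, 46.6 and 43.4 TPM in tardbp 2TG. g6pca.2, which releases glucose, had 73.0, 86.1 and 159.8 TPM in smn1 3TG, against 14.2, 45.9 and 56.0 TPM in smn1 2TG, and 90.3, 125 and 36.4 TPM in tardbp 3TG, against 12.4, 46.8 and 30.5 TPM in tardbp 2TG (1.51, SE 0.409). klf9 (1.23) and lpin1 (1.73) were at that threshold, fkbp5 (0.51) and the receptor gene nr3c1 (-0.0013) were not. crhb, lpin1 and g6pca.2 were called without tardbp 3TG replicate 3, as were 0.565% of all genes in that direction. crhb acts upstream of cortisol and nr3c1 is the receptor gene itself, so the list's counts are no measure of receptor activity. pck1 and tat are shared with the digestive lists, and per1a with the clock list.

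Of 42 neuronal and synaptic genes 36 were higher by sign, 7 higher and 1 lower at an unadjusted p under 0.05, with a median of 0.21 (0.34 in smn1, 0.13 in tardbp, -0.55 in lin28a); with TPM as deposited 23 were higher by sign. Without tardbp 2TG replicate 1 the median was 0.13, with 5 genes higher at that threshold, and without tardbp 2TG replicate 3 it was 0.31, with 18. snap25a, of the vesicle fusion machinery, had 162, 192 and 229.9 TPM in smn1 3TG, against 119, 152 and 129 TPM in smn1 2TG, and 208, 243 and 148 TPM in tardbp 3TG, against 112, 142 and 169 TPM in tardbp 2TG. It was apart in smn1 and overlapped in tardbp (0.51, SE 0.153, limma adjusted p = 0.128). snap25a had 197, 42.0 and 168 TPM in lin28a 3TG, against 189, 176 and 196 TPM in lin28a 2TG, with 3TG replicate 2 far below the rest. camk2a, a synaptic kinase gene, differed by 0.95 (SE 0.290). Of 21 genes of motor neurons and the neuromuscular junction 10 were higher and 11 lower by sign, with a median of -0.027 (0.040 after median centring and 0.10 without tardbp 3TG replicate 2), and 2 were higher at that threshold. These were chata, which makes acetylcholine (0.48, SE 0.218), and the motor neuron transcription factor gene isl2a (0.30, SE 0.140). chata had 9.83, 13.6 and 21.2 TPM in smn1 3TG, against 7.52, 10.6 and 11.3 TPM in smn1 2TG, and 15.7, 18.9 and 10.2 TPM in tardbp 3TG, against 7.05, 11.1 and 13.8 TPM in tardbp 2TG, with overlap in both lines. isl2a was apart in smn1, and its difference in tardbp was 0.067.

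Of 21 genes of glia and myelin 8 were higher and 1 lower at an unadjusted p under 0.05, and by p the first were the myelin genes mpz (1.05, SE 0.374) and cldnk (0.70, SE 0.259). Of 43 contractile genes of skeletal muscle 5 were higher and 1, the intermediate filament gene desma (-0.62, SE 0.176), lower at that threshold, and the list's median was 0.13 and -0.064 with TPM as deposited. The calcium buffer gene pvalb4 was apart in smn1 (0.66) and overlapped in tardbp (0.11). In hair cells, the receptors of the ear and lateral line, 5 of 17 genes were higher at that threshold. By sign 11 were higher and 6 lower, with a median of 0.20 (0.31 in smn1, 0.20 in tardbp). The list's median level in single libraries was apart in smn1 and overlapped in tardbp. s100t, a hair cell marker in zebrafish, had 81.4, 89.7 and 74.5 TPM in smn1 3TG, against 33.2, 32.4 and 51.0 TPM in smn1 2TG, and 109.6, 85.8 and 62.7 TPM in tardbp 3TG, against 42.2, 46.9 and 63.5 TPM in tardbp 2TG. Its groups were apart in smn1 (pooled difference 0.91, SE 0.174). In tardbp they overlapped only through 3TG replicate 3 (62.7 TPM) and 2TG replicate 3 (63.5 TPM). cabp2b, a calcium-binding protein gene, had 8.02, 9.45 and 10.4 TPM in smn1 3TG, against 7.93, 4.52 and 6.51 TPM in smn1 2TG, and 12.4, 13.0 and 12 TPM in tardbp 3TG, against 5.51, 6.61 and 6.12 TPM in tardbp 2TG. It was alike, by a narrow margin in smn1 (0.72, SE 0.152).

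Blood and immune genes varied within groups. Of 20 globin and erythroid genes 18 were lower by sign and 4 at an unadjusted p under 0.05, with a median of -0.60; the globin gene hbae1.3 had 1464, 1406 and 704 TPM in smn1 3TG, against 1993, 1071 and 2979 TPM in smn1 2TG, and 1318, 884 and 2451 TPM in tardbp 3TG, against 4813, 1816 and 2163 TPM in tardbp 2TG, with overlap in both lines. Of 24 macrophage and neutrophil genes 4 were higher and 1 lower at that threshold, and the list's median had opposite signs with TPM as deposited (-0.038) and in the pooled fit (0.11, and 0.047 to 0.20 with single libraries left out). The lower one was mfap4, a macrophage marker in zebrafish, with 5.55, 0.303 and 4.19 TPM in smn1 3TG, against 6.17, 17.4 and 10.5 TPM in smn1 2TG, and 2.45, 3.57 and 6.28 TPM in tardbp 3TG, against 11.1, 7.20 and 14.4 TPM in tardbp 2TG (-1.47, SE 0.383), and it was alike. mpeg1.1, another macrophage marker, differed by 0.57 (SE 0.217), so these markers had opposite signs. The 23 inflammation and interferon genes had a median of 0.24, which was -0.093 without tardbp 3TG replicate 3 and 0.46 without smn1 3TG replicate 2.

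The remaining lists are given by their counts at an unadjusted p under 0.05, where 6.62% of all genes were higher and 16.8% lower. Immediate early genes had 4 higher of 30, keratins and epidermis 5 of 29, lens crystallins 2 of 27, pituitary hormones 2 of 7 and heart 1 of 15, with none lower. Ribosome biogenesis had 1 higher and 7 lower of 48, pigment cells 1 and 4 of 25, cartilage and bone 3 and 2 of 37, hypoxia and glycolysis 3 and 3 of 36, vascular endothelium 1 and 1 of 29, mitochondrially encoded genes 1 and 1 of 13, and the hatching gland 1 and 1 of 8. None of the 13 genes of the endocrine pancreas reached that threshold. The medians of the endocrine pancreas, hatching gland, hypoxia, keratin, lens and endothelium lists changed sign between scalings. By smallest p the first of the endothelium list was plvapa, named above, of the mitochondrially encoded genes mt-nd4l, a subunit gene of respiratory complex I (-0.47, SE 0.126), of the hatching gland list the cathepsin gene ctsl.1 (1.80, SE 0.512), of the hypoxia list the glucose transporter gene slc2a1a (1.29, SE 0.369) and of the keratin list krt15 (1.19, SE 0.359). The purine synthesis gene gmps was the first of the pigment list and alike lower (-0.45, SE 0.154). egln3, an oxygen sensor and the next of the hypoxia list after slc2a1a, was apart in smn1 (-2.79) and overlapped in tardbp (-0.38).

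**Figure D5:**
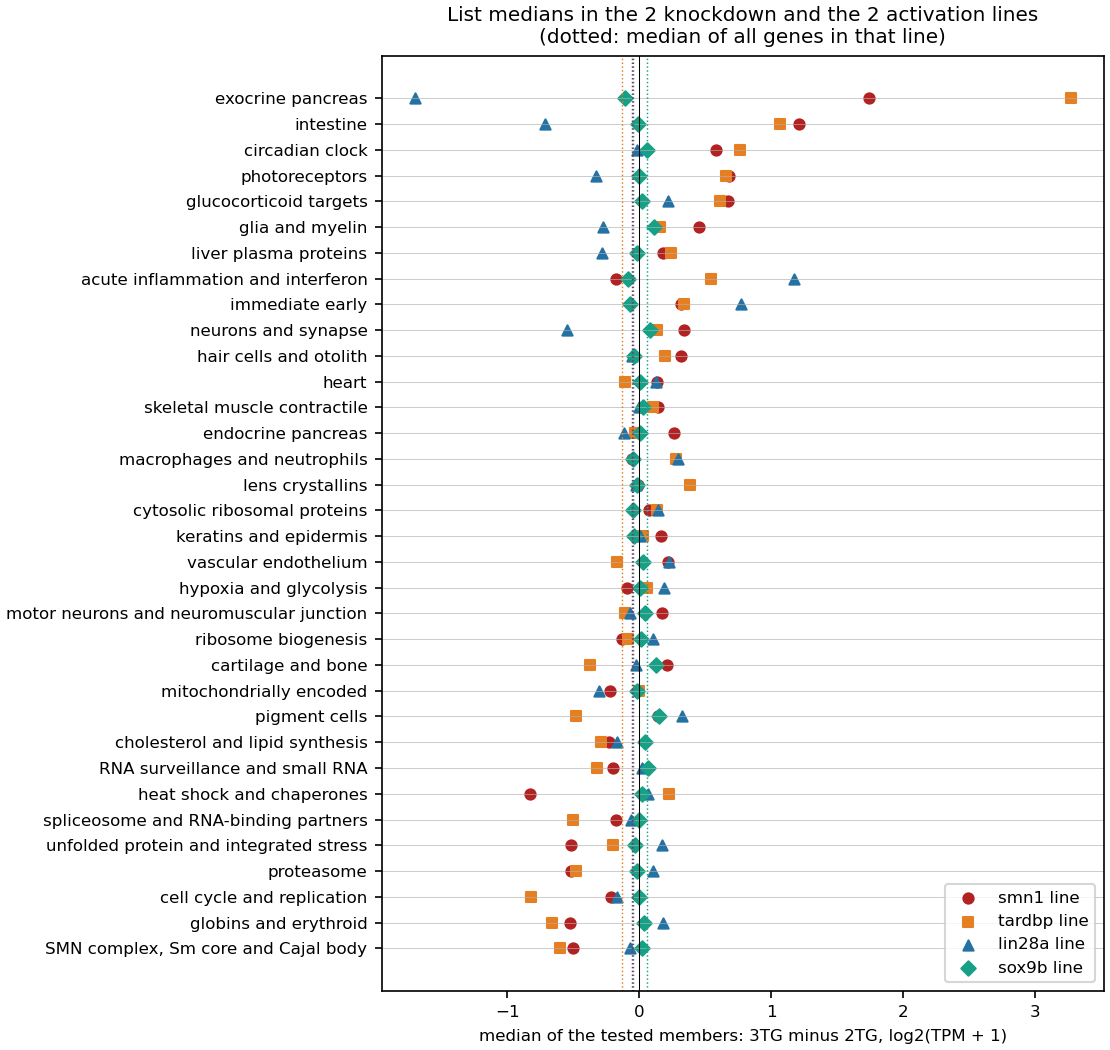
Each symbol is the median 3TG minus 2TG difference in log2(TPM + 1) over the tested members of a gene list in 1 line, for the reported lists of at least 10 tested members; circles and squares are the smn1 and tardbp knockdown lines, triangles and diamonds the lin28a and sox9b activation lines, and dotted lines the median of all genes in a line. Exocrine pancreas lies at 1.74 in smn1 and 3.27 in tardbp with lin28a at -1.70, the proteasome at -0.52 and -0.48 with lin28a at 0.11, and the heat shock list has opposite signs in the knockdown lines.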

How the data were processed

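TPM per gene in whole embryos had been deposited by the authors, in 1 table per line; sequencing depth is unknown. The submitters' processing notes name Trimmomatic 0.39, STAR 2.7.10b and Salmon 1.10.1, without their roles, and the builds GRCz11 and danRer11. The smn1 and tardbp tables were joined by gene identifier, libraries were rescaled as described above, and log2(TPM + 1) was fitted with limma 3.58.1 in R 4.3.3 (3TG effect, line as a block, trended variance prior, two-sided, Benjamini-Hochberg over all 19469 genes), after tests on simulated data. The members, the 38 gene lists, the tests and the rule for named genes were chosen with earlier results of these data known. That rule takes the targets, hsp70l and 14 alike genes per direction by smallest p, leaving out clone-code names. Where none of a list was called, it also takes the list's 2 members of smallest p. Not all of these list members are given above, and which ones are was decided with their values known. Genes outside the rule were named after their values were seen. A repeated symbol in a list was resolved to its entry of highest mean, some genes are in several lists, and 1 list is not reported here. Alternatives covered scaling, pseudocount, filter, blocks, weights, variance priors, thresholds and each library left out. The counts without overlap or at an unadjusted p under the alternatives, median centring without tardbp 3TG replicate 3 and the libraries of 1 number format were added after seeing the data.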

Additional observations from a re-analysis of the deposited data

How the results depend on the processing

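The pooled limma fit called 0 genes higher and 0 lower at an adjusted p of 0.05. Called higher and lower were 310 and 1284 with library weights, 207 and 765 with the spread of 24 libraries, 110 and 272 without tardbp 3TG replicate 3, and 79 and 31 with that library left out and the libraries median centred. No filter, a TPM minimum of 5, a variance prior without a trend and an adjusted p of 0.1 each called 2 genes lower; leaving out 1 library gave 0 to 110 higher and 0 to 272 lower, with 1 lower without smn1 3TG replicate 1. Called and alike, in the same order, were 45 and 374, 32 and 313, 79 and 248, and 68 and 31, then 2 lower in each of those settings, and 0 to 79 higher and 0 to 248 lower with 1 library left out. The cause of these changes was not tested.

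Genes without overlap in both lines were 78 higher and 581 lower; they numbered 3 and 1139 with TPM as deposited, 161 and 251 with median centring, 148 and 302 with quantile normalization, and 602 and 2673 over the 8 libraries of 6 significant digits. A TPM minimum of 5 left 42 higher, median centring without tardbp 3TG replicate 3 gave 638 higher, and leaving out 1 library gave 84 to 392 higher and 652 to 1453 lower; fewer libraries make separation easier by construction. At an unadjusted p under 0.05 the higher genes numbered 427 as deposited, 2040 with centring, 855 at the TPM minimum of 5, 526 in tardbp alone, 2477 with centring without tardbp 3TG replicate 3, and 793 to 1873 with 1 library left out. The lower ones numbered 1983 with centring, 2157 with quantile normalization, 1291 in smn1 alone, 1694 in tardbp alone and 2426 to 4034 with 1 library left out. The lower share of them was 71.7% in the pooled fit, 90.8% as deposited, 49.3% with centring and 53% with quantile normalization.

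The test of knockdown minus activation called 0 genes, against 1 with the replicate block, 1966 with library weights, 4 with centring without tardbp 3TG replicate 3 and 0 to 8 with 1 library left out (8 without smn1 3TG replicate 1, 4 without tardbp 3TG replicate 3). The test between the lines called 0 genes under every setting in which it was run. Differences of opposite sign were 0.104 with the number format as a covariate and 0.514 in smn1 alone for sox9b, and 1.66 in tardbp alone and 0.0709 over the libraries of 6 significant digits for hsp70l. Of the 34 targets and alike genes named by the rule, 21 passed without tardbp 3TG replicate 3, 26 with the spread of 24 libraries and 28 with library weights. The alike genes among them had been chosen by smallest p in these same libraries, so these counts are no independent support.

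The labels do not say whether replicate numbers pair samples. Correlations of the deviations of same-numbered 3TG and 2TG libraries from their group means were 0.29, -0.035 and -0.064 in smn1 and -0.077, 0.14 and -0.25 in tardbp. Only smn1 3TG replicate 1 correlated best with its own number. With 3 libraries per group these values cannot decide whether samples were paired. With a replicate block limma called 0 genes (smallest adjusted p 0.157), with 1395 higher and 3013 lower at an unadjusted p under 0.05. TPM keep no record of depth, so counting error could not be set apart from the spread between libraries.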

Other observations

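These families were taken whole by gene symbol after their values were seen, and so carry no test. All 21 tested cytosolic aminoacyl-tRNA synthetase genes, which charge tRNAs, were lower by sign in 3TG and 16 were at an unadjusted p under 0.05, where 16.8% of all genes were; wars1, vars1 and eprs1 were without overlap in both lines, as were 2.98% of all genes in that direction. Their median was -0.44 (0.24 in lin28a). Of 15 mitochondrial synthetase genes 5 were lower at that threshold. All 10 Lsm genes, relatives of the Sm proteins, were lower at that threshold with a median of -0.74, and lsm12a, lsm3, lsm8 and lsm11 were without overlap. Of 22 nucleoporin genes 13 were lower at it and 6 without overlap, against 2.98% of all genes.

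The transcription machinery stood likewise: 8 of 12 RNA polymerase II genes, 6 of 11 TFIIH genes, 16 of 31 Mediator genes and 12 of 18 TAF genes were lower at that threshold and none higher. The anaphase-promoting complex had 9 of 14, intraflagellar transport 6 of 14, GPI anchor synthesis 12 of 20 and the conserved oligomeric Golgi complex 5 of 8. The translation factor eIF3 had 2 of 15 and a median of -0.065, which was -0.26 with TPM as deposited and 0.0022 after median centring. For the other lower families the medians under these scalings kept their sign.

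On the other side, 65 of 80 potassium channel genes were higher by sign and 11 at that threshold, where 6.62% of all genes were, with a median of 0.29 in the knockdowns and -0.21 in lin28a. Of 27 ionotropic glutamate receptor genes 6 were higher at it (median 0.31, -0.45 in lin28a). Of 27 GABA and glycine receptor genes 7 were higher and 3 lower at it (median 0.43). Of 25 RGS genes, which limit G protein signals, 7 were higher at it, with a median of 0.16 that was -0.0092 with TPM as deposited.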
